A study of Saccharomyces cerevisiae S288C with 4 samples.

Results

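The pre-mRNA splicing factors of budding yeast were compared between wild-type (WT) cells and cells without Tho2, a subunit of the THO complex that travels with RNA polymerase II and helps to package nascent mRNA for export. The genes were 54 protein-coding genes taken by symbol from a list of snRNP proteins, Prp factors and Lsm proteins, out of 6396 genes in the table of read counts. All 54 were found, all 54 passed the filter on low counts, and none had a count of 0 in any of the 4 libraries. WT was BY4741 and *tho2Δ* was FY254, in which KanMX4 stands in place of *THO2*. Both strains were MATa haploids whose genotypes list the alleles his3Δ1, leu2Δ0, met15Δ0 and ura3Δ0, and both were grown in rich medium (YPD) at 30°C to mid-log phase. Total RNA of each strain gave 2 RNA-seq libraries, numbered 3 and 4 in the labels. Whether the 2 libraries of a strain stem from different cultures is not stated, and the p-values therefore cover only the spread between libraries, which may be technical.

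Splicing removes introns from pre-mRNA in 2 chemical steps within the spliceosome, which is built anew on each intron from the U1, U2, U4, U5 and U6 small nuclear ribonucleoprotein particles (snRNPs) and non-snRNP proteins. U1 binds the 5′ splice site, the branch point proteins and U2 bind the branch point sequence, and the U4/U6.U5 tri-snRNP then joins. ATP-dependent helicases and the Prp19 complex (NTC) remodel this assembly into the active enzyme. In budding yeast few genes have introns, but ribosomal protein genes are prominent among them.

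Of the 54 genes, 5 have an intron of their own, namely *MUD1*, *LSM7*, *LSM2*, *SMD2* and *YSF3*, and these introns are shown because they carry the 5′ splice site and branch point sequences that U1 and the branch point proteins bind. In the reference genome R64 all 5 begin with GTATGT, the usual yeast 5′ splice site, and hold TACTAAC, the branch point sequence. Of 281 introns of nuclear protein-coding genes, 205 (73.0%) begin with GTATGT, 232 (82.6%) hold TACTAAC and 170 (60.5%) have both. The introns are given 5′ to 3′ on the plus strand, with the first 6 bases, the branch point sequence and the final AG in capitals.
*MUD1* intron, chrII:479346-479434: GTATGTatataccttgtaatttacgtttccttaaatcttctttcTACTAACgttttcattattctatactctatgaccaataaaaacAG
*LSM7* intron, chrXIV:350958-351053: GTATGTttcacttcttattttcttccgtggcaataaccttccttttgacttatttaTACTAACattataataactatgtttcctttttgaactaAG
*LSM2* intron, chrII:170677-170804: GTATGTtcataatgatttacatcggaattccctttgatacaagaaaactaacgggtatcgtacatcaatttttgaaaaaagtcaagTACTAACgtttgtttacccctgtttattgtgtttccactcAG
*SMD2* intron, chrXII:694383-694472: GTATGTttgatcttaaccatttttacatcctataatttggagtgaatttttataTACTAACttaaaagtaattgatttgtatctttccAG
*YSF3* intron, chrXIV:366036-366157: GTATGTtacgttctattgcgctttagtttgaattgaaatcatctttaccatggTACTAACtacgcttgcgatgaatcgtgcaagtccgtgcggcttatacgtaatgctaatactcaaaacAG
The introns of the 5 genes are 89 bases long in *MUD1*, 96 in *LSM7*, 128 in *LSM2*, 90 in *SMD2* and 122 in *YSF3*, against a median of 141 over the 281 introns. Each value below is a count over the whole gene, so spliced and unspliced RNA of these 5 genes cannot be told apart.

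The libraries were checked against their labels before the genes were compared. *THO2* had 4011 and 2457 counts in WT replicates 3 and 4 and 1 count in each *tho2Δ* library. *URA3* and *MET17* had 0 counts in all 4 libraries. The upper limit of such a 0, taken as 3 counts, corresponds to 0.0692 to 0.128 CPM. CPM here are counts relative to the total of the library times its TMM factor, a scaling explained below. *HIS3* had 586 to 981 counts, and his3Δ1 removes only a part of that gene. *LEU2*, which both genotypes list as deleted, went against the labels in 3 libraries, with 0 counts in WT replicate 3, 2512 in WT replicate 4, 511 in *tho2Δ* replicate 3 and 4276 in *tho2Δ* replicate 4. Its part in the results was not tested, and values without WT replicate 4 are given below, whereas both *tho2Δ* libraries held *LEU2* reads. The 6 MATa-specific genes summed to 1358 to 2726 TPM (counts relative to gene length and library) in WT and 3365 to 3791 in *tho2Δ*, and the 4 MATα-specific genes to 5.86 to 9.34 TPM in WT and 25.6 to 31.7 in *tho2Δ*, with no gene of either list at 0. The libraries held 31417222 to 36989697 counts. The WT libraries were less alike than the *tho2Δ* libraries, with median absolute log2 differences between the libraries of a strain of 0.23 in WT and 0.10 in *tho2Δ* over the 54 genes. WT replicate 4 stood apart, with the lowest TPM of the 4 libraries for 47 of the 54 genes and 0.0855% of its counts on them, against 0.123% in WT replicate 3, 0.129% in *tho2Δ* replicate 3 and 0.130% in *tho2Δ* replicate 4. This was not particular to the 54 genes. The median TPM over all genes was also lowest in WT replicate 4, at 14.2, against 19.5 in WT replicate 3 and 22.9 and 23.2 in *tho2Δ* replicates 3 and 4.

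Most splicing factor transcripts did not pass the test for a difference between *tho2Δ* and WT, and with TMM scaling those that did changed by less than 2-fold. TMM sets the libraries level on the bulk of the genes, and with it 2 of the 54 were higher in *tho2Δ*, 7 were lower and 45 did not pass (edgeR quasi-likelihood test, Benjamini-Hochberg adjusted p under 0.05 over the 5890 genes tested). The 9 genes are 16.7% of the 54, whereas 38.0% of all genes tested passed, 18.8% higher and 19.1% lower. On this scale none of the 54 was past 2-fold in either direction, against 1098 (18.6%) of all genes tested. The median of the absolute log2 fold changes was 0.26 for the splicing factors and 0.42 for all genes, with median SEs of 0.16 and 0.15. The splicing factors were less deeply counted, with a median over genes of 463.5 counts per library against 1048.5 for all genes tested, and ranged from 67.5 to 4121.

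**Figure D1:**
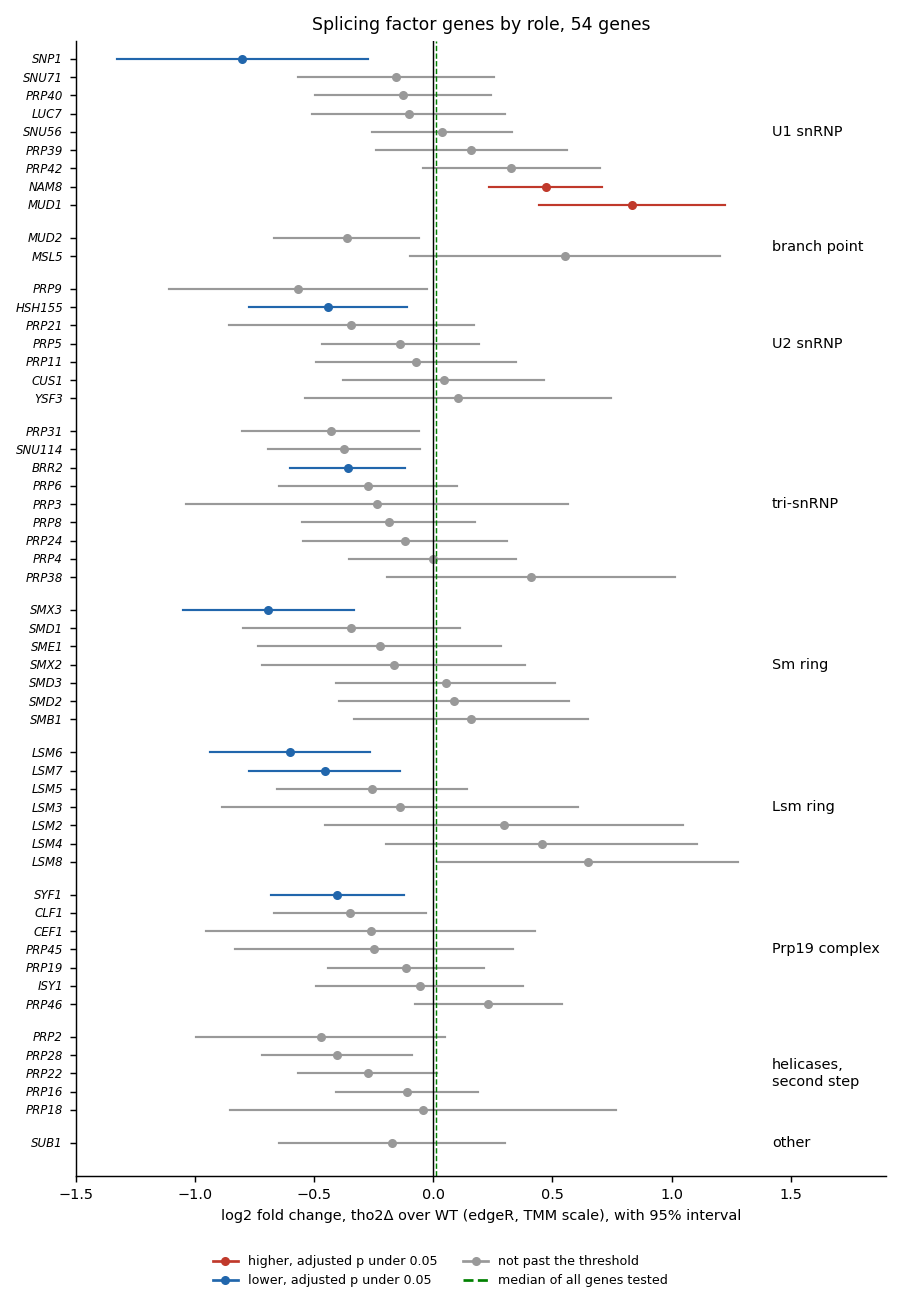
Log2 fold change of each of the 54 genes, *tho2Δ* over WT on the TMM scale, with its 95% interval from edgeR, grouped by role (n = 2 libraries per strain). Red marks the 2 genes that passed as higher in *tho2Δ* and blue the 7 that passed as lower, though *BRR2*, *SYF1* and *HSH155* change sign with library totals, and all points lie between -0.80 and 0.83.

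Among the 45 genes that did not pass, the 95% interval on the TMM scale lay within 2-fold in both directions for 38 and within 1.5-fold for 18. Larger changes are outside these intervals for those genes only, and on the TMM scale only. The intervals do not cover the choice of scaling, which moved the median of the 54 genes from -0.15 to 0.31 with library totals. The libraries of the strains did not overlap in CPM for 30 of the 54 genes, 9 with *tho2Δ* above and 21 with *tho2Δ* below, against 74.9% of all genes tested. At an unadjusted p under 0.05 there were 16 of the 54 genes, 3 higher and 13 lower, against 50.1% of all genes.

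The direction of the list as a whole depended on the scaling. The median log2 fold change of the 54 genes was -0.15 with TMM, beside 0.01 for all genes tested, and 38 of the 54 were below 0. With library totals in place of TMM the median was 0.31 and 48 genes were above 0, while the median of all genes moved to 0.45. On log2(TPM + 1), tested with limma, it was 0.23 beside 0.39 for all genes, and on log2(TPM + 0.1) 0.26 beside 0.42. Relative to the median of all genes, the splicing factors were therefore at -0.16, -0.14, -0.15 and -0.16 in the same order of scales. With library totals and on both TPM scales *MUD1* and *NAM8* passed and none of the 54 genes passed as lower, with 0 lower also at an unadjusted p under 0.05 in edgeR on library totals and in limma on both TPM scales. Over all genes the share of calls that were higher went from 49.6% with TMM to 79.9% with library totals and to 77.2% and 76.2% on the TPM scales.

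**Figure D2:**
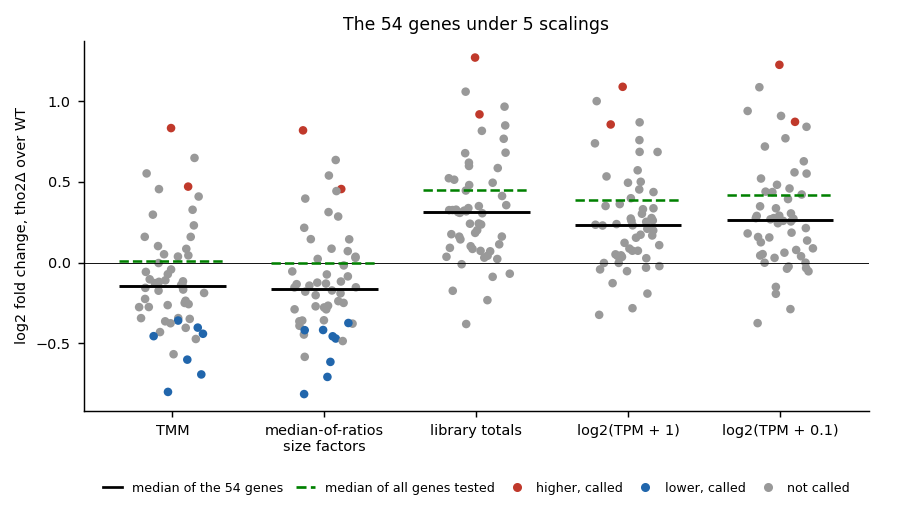
Log2 fold changes (*tho2Δ* over WT) of the 54 genes under 5 scalings, 1 point per gene, with the median of the 54 genes as a black line and the median of all genes tested as a dashed green line. The 2 genes called higher appear under every scaling, the 7 or 8 called lower appear under TMM and median-of-ratios size factors only, and the black line stays below the green line while both move up.

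The U1 snRNP, the particle that recognizes the 5′ splice site, had 9 genes in the list, of which 2 were higher, 1 was lower and 6 did not pass, with a median log2 fold change of 0.04. This share is near the 38.0% called over all genes, so the counts say nothing particular to U1. *MUD1*, which encodes the yeast homolog of the human U1 protein A, had 6.06 and 5.59 CPM in WT replicates 3 and 4 and 10.4 CPM in each *tho2Δ* library, from 204, 131, 384 and 452 counts. It lay 1.78-fold higher in *tho2Δ*, with no overlap of the strains (log2 fold change 0.83, SE 0.16, adjusted p = 0.0119, edgeR). *NAM8*, a U1 protein needed for splicing of some meiotic transcripts, had 74.3 and 76.1 CPM in WT and 105 and 104 CPM in *tho2Δ*. Its 2 WT libraries were close together on the TMM scale and both lay below both *tho2Δ* libraries, a 1.39-fold difference (log2 fold change 0.47, SE 0.09, adjusted p = 0.0152, edgeR). Both calls held with library totals, where *MUD1* had a log2 fold change of 1.27 (adjusted p = 0.0271, edgeR) and *NAM8* of 0.92 (adjusted p = 0.029, edgeR). Neither held when a *tho2Δ* library was left out, which gave adjusted p = 0.146 and 0.143 for *MUD1* and 0.203 and 0.162 for *NAM8* (edgeR, without *tho2Δ* replicates 3 and 4). The log2 fold changes there were 0.84 and 0.83 for *MUD1* and 0.46 and 0.48 for *NAM8*.

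*SNP1*, the U1-70K homolog, went the other way within the same particle. Its CPM was 7.67 and 5.98 in WT and 4.06 and 3.80 in *tho2Δ*, so the *tho2Δ* libraries lay below both WT libraries (log2 fold change -0.80, SE 0.21, adjusted p = 0.0336, edgeR). With library totals its log2 fold change was -0.38 (adjusted p = 0.467, edgeR). The other 6 U1 genes had log2 fold changes from -0.16 for *SNU71* to 0.33 for *PRP42* and none passed. *SNU56* was at 16.7 and 16.4 CPM in WT and 16.8 and 17.2 CPM in *tho2Δ*, with a 95% interval of the log2 fold change from -0.26 to 0.33. *PRP39*, which pairs with *PRP42* in the particle, was at 53.2 and 60.2 CPM in WT and 71.4 and 55.3 CPM in *tho2Δ*, so the strains overlapped. *LUC7*, whose protein acts in 5′ splice site choice, and *PRP40*, whose protein links U1 to the branch point, had log2 fold changes of -0.10 and -0.13.

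**Figure D3:**
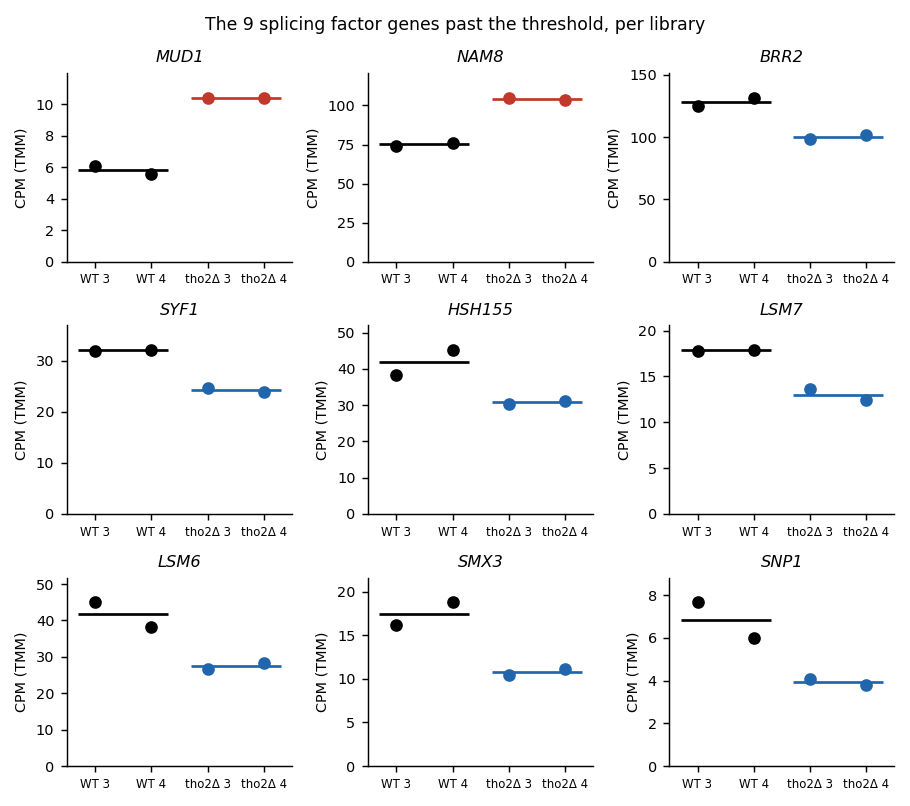
CPM (TMM scale, each axis from 0) of the 9 genes past the threshold in WT replicates 3 and 4 (black) and *tho2Δ* replicates 3 and 4 (red for higher, blue for lower), with the mean of each strain as a line. In every panel the 2 *tho2Δ* libraries lie on one side of the 2 WT libraries, and *BRR2*, *SYF1* and *HSH155* do not keep their direction with library totals.

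The genes for branch point recognition did not pass the test. *MSL5*, the branch point binding protein, had 4.10 and 2.9 CPM in WT and 4.63 and 5.72 CPM in *tho2Δ* (log2 fold change 0.55, SE 0.26, adjusted p = 0.146, edgeR). *MUD2*, the yeast counterpart of the large U2AF subunit, had 27.3 and 25.2 CPM in WT and 21.4 and 19.5 CPM in *tho2Δ* (log2 fold change -0.36, SE 0.12, adjusted p = 0.0652, edgeR). Their products bind as a pair, and their estimates lay on opposite sides of 0, a difference that was not tested.

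Of 7 U2 snRNP genes 1 was lower and 6 did not pass, beside 38.0% called over all genes. Their median log2 fold change was -0.14. *HSH155*, the SF3B1 homolog that clamps the branch point helix, had 38.4 and 45.2 CPM in WT and 30.3 and 31.3 CPM in *tho2Δ* (log2 fold change -0.44, SE 0.13, adjusted p = 0.0483, edgeR), but with library totals the value was 0.023. It had the largest adjusted p of the 9 genes, and the call was lost with DESeq2 (adjusted p = 0.0505) and in edgeR with no filter or a mean count of 50 as the filter (adjusted p = 0.0517 and 0.0508). *PRP9*, *PRP11* and *PRP21* encode the SF3a subcomplex and had log2 fold changes of -0.57, -0.07 and -0.34. *PRP9* was at 9.39 and 13.3 CPM in WT and 7.14 and 8.09 CPM in *tho2Δ* (adjusted p = 0.0891, edgeR), with WT replicate 4 standing highest. The SF3b genes *CUS1* and *YSF3* had log2 fold changes of 0.04 and 0.10, and *PRP5*, the ATPase that helps U2 onto the branch point, of -0.14. *YSF3* lies on chromosome XIV beside *THO2*, and its 95% interval ran from -0.54 to 0.75.

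Among the 9 genes of the tri-snRNP and of U4/U6 assembly 1 was lower and 8 did not pass, beside 38.0% called over all genes. Their median log2 fold change was -0.24. *BRR2*, the helicase that unwinds U4 from U6, had 125 and 132 CPM in WT and 98.6 and 102 CPM in *tho2Δ* (log2 fold change -0.36, SE 0.10, adjusted p = 0.0355, edgeR). On this TMM scale the strains were apart by more than the spread within them. In TPM *BRR2* was at 16.6 and 13.1 in WT, on both sides of 14.9 and 15.6 in *tho2Δ*. With library totals its log2 fold change was 0.092 and on the TPM scales 0.041 and 0.044, and it did not pass with DESeq2 (adjusted p = 0.0538). *SNU114*, the GTPase that works with *BRR2* in U5, had 45.7 and 52.5 CPM in WT and 36.6 and 39.1 CPM in *tho2Δ* (log2 fold change -0.38, SE 0.13, adjusted p = 0.0672, edgeR). *PRP8*, the scaffold of the catalytic core, was at 139 and 116 CPM in WT and 102 and 122 CPM in *tho2Δ*, and the strains overlapped (log2 fold change -0.19, adjusted p = 0.348, edgeR). The U4/U6 proteins *PRP3*, *PRP4* and *PRP31* had log2 fold changes of -0.24, 0.00 and -0.43, and *PRP6*, which bridges U5 to U4/U6, of -0.28. *PRP24*, which anneals U4 to U6, had -0.12. *PRP38*, needed for activation, had the highest value of the group at 0.41, with 6.54 and 4.31 CPM in WT and 7.14 and 7.38 CPM in *tho2Δ* (adjusted p = 0.229, edgeR). *PRP38* and the Sm gene *SMD1* converge and overlap on chromosome VII, and since it is not known whether the counting used strand, reads in the overlap cannot be assigned to either.

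The Sm proteins form the ring around the U1, U2, U4 and U5 RNAs. Of their 7 genes 1 was lower and 6 did not pass, beside 38.0% called over all genes. *SMX3*, which encodes Sm F, had 16.2 and 18.8 CPM in WT and 10.4 and 11.2 CPM in *tho2Δ*, the widest gap of the group (log2 fold change -0.69, SE 0.14, adjusted p = 0.0162, edgeR). With library totals it was at -0.23 (adjusted p = 0.543, edgeR). The other Sm genes ranged from -0.34 for *SMD1* to 0.16 for *SMB1*, although the 7 proteins are built into the ring in equal numbers. *SMD2* was at 5.68 and 5.34 CPM in WT and 5.30 and 6.39 CPM in *tho2Δ*, and *SMD3* at 5.68 and 6.83 CPM in WT and 6.36 and 6.57 CPM in *tho2Δ*. In both genes the strains overlapped. *SME1* and *SMX2* had log2 fold changes of -0.22 and -0.17.

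The Lsm2-8 proteins form the ring on the end of U6 RNA, and Lsm2 to Lsm7 are shared with the cytoplasmic Lsm1-7 ring of mRNA decay. Of the 7 Lsm genes 2 were lower and 5 did not pass, beside 38.0% called over all genes. These counts say nothing particular to the ring. The log2 fold changes of the 7 genes spread from -0.60 to 0.65. *LSM6* had 45.0 and 38.3 CPM in WT and 26.8 and 28.2 CPM in *tho2Δ* (log2 fold change -0.60, SE 0.13, adjusted p = 0.0205, edgeR). *LSM7* had 17.8 and 17.9 CPM in WT and 13.7 and 12.4 CPM in *tho2Δ* (log2 fold change -0.46, SE 0.13, adjusted p = 0.0391, edgeR). With library totals *LSM6* was at -0.17 and *LSM7* at -0.01, and neither passed. *LSM7* did not pass with DESeq2 either (adjusted p = 0.0598). *LSM8*, the subunit that is particular to the nuclear ring, had 4.31 and 2.9 CPM in WT and 5.57 and 5.83 CPM in *tho2Δ* (log2 fold change 0.65, SE 0.25, adjusted p = 0.0922, edgeR). *LSM4* and *LSM2* had log2 fold changes of 0.46 and 0.30, and both had a low WT replicate 4, with 16.6 and 9.86 CPM in the WT libraries for *LSM4* and 30.8 and 16.4 CPM for *LSM2*. *LSM2* was at 31.5 and 26.8 CPM in *tho2Δ*, on both sides of WT replicate 3. *LSM3* and *LSM5* had log2 fold changes of -0.14 and -0.26, and *LSM5* overlaps the open reading frame *YER145C-A*.

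Of 7 Prp19 complex genes, whose products hold the active spliceosome together, 1 was lower and 6 did not pass, beside 38.0% over all genes. *SYF1*, a scaffold protein of the complex, had 32.0 and 32.1 CPM in WT and 24.6 and 23.9 CPM in *tho2Δ* (log2 fold change -0.40, SE 0.11, adjusted p = 0.0384, edgeR). The small spread within WT is that of the TMM scale. In TPM *SYF1* was at 10.7 and 8.06 in WT, on both sides of 9.34 and 9.23 in *tho2Δ*. With library totals its log2 fold change was 0.043, and with DESeq2 it did not pass (adjusted p = 0.0545). *CLF1*, another scaffold protein, was at 16.3 and 17.3 CPM in WT and 12.7 and 13.7 CPM in *tho2Δ* (log2 fold change -0.35, adjusted p = 0.0808, edgeR). *CEF1*, the yeast CDC5L homolog, was the only one of the 54 genes whose *tho2Δ* libraries differed by over 1.5-fold, at 4.36 and 7.22 CPM, beside 7.05 and 6.87 CPM in WT. *PRP19*, the ubiquitin ligase that names the complex, had a log2 fold change of -0.12. *PRP45*, *PRP46* and *ISY1* had -0.25, 0.23 and -0.06.

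The helicases and the second step factor all had estimates below 0 with TMM, but with library totals only *PRP2* of the 5 did, at -0.068. With all 4 libraries none of the 5 passed in edgeR with TMM or in DESeq2, beside 38.0% called over all genes in edgeR. At an unadjusted p under 0.05 there was 1 of the 5 in edgeR, beside 50.1% of all genes. Which of the 5 passed depended on the libraries kept. *PRP28*, which exchanges U1 for U6 at the 5′ splice site, was the nearest to the threshold of the 45 genes outside it, with 16.1 and 15.4 CPM in WT and 12 and 11.8 CPM in *tho2Δ* (log2 fold change -0.40, SE 0.12, adjusted p = 0.0529, edgeR). It passed when median-of-ratios size factors replaced TMM and without either WT library. *PRP2*, which starts the first chemical step, was at 22.1 and 14.9 CPM in WT and 13.2 and 13.5 CPM in *tho2Δ*, and most of its gap came from WT replicate 3. *PRP22*, which releases the mRNA, and *PRP16*, which remodels the enzyme between the steps, had log2 fold changes of -0.27 and -0.11. *PRP18*, a second step factor, had -0.04 with a 95% interval from -0.85 to 0.77. *SUB1*, the last gene of the list, encodes a transcription coactivator homologous to human PC4 and is not counted with the spliceosome proteins by its known role, and its log2 fold change was -0.17 (adjusted p = 0.501, edgeR).

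The libraries decided how many of these genes passed. Without WT replicate 4, which held *LEU2* reads and stood apart, 2 genes were higher and 15 lower, 31.5% of the 54 when 54.2% of all genes were called. Without WT replicate 3, 7 were higher and 16 lower, 42.6% of the 54 when 61.2% of all genes were called. In both cases all 9 genes above were among them. Without *tho2Δ* replicate 3 none of the 54 genes passed in edgeR (2 at an unadjusted p under 0.05), and without *tho2Δ* replicate 4 none passed (3 at an unadjusted p under 0.05), when 9.20% and 8.55% of all genes did. *MSL5*, *PRP38*, *LSM2*, *LSM4* and *LSM8* passed as higher only in the fit without WT replicate 3, among the fits run, and WT replicate 4 was the lowest of the 4 libraries for each of them in TPM and in CPM.

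Transcript levels were compared between the genes on the TPM scale, which is divided by gene length. The splicing factors were low to moderate transcripts, with a median TPM over the 54 genes of 10.6 and 7.94 in WT replicates 3 and 4 and of 11.1 and 11.6 in *tho2Δ*, beside 19.5, 14.2, 22.9 and 23.2 over all genes. There were 27 genes under a mean of 10 TPM and 4 over 50 TPM. *LSM6* had the highest mean level, at 149 and 94.9 TPM in WT and 101 and 107 TPM in *tho2Δ*, and *LSM5*, next to it, was within its spread. *LSM2* came after them at 92.2 and 37 TPM in WT and 107 and 92.6 TPM in *tho2Δ*, with WT replicate 4 far below the other libraries. *PRP3* was the lowest, at 1.5 and 0.867 TPM in WT and 1.09 and 1.53 TPM in *tho2Δ*. *MSL5* and *CEF1* followed with WT means of 1.88 ± 0.807 and 2.97 ± 0.655 TPM (SD, n = 2). Over the WT means, the Lsm ring had a median of 38.7 TPM, the Sm ring 15.2, the Prp19 complex 9.38, the U1 snRNP 8.97, the tri-snRNP 6.80, the helicases and the second step factor 6.24 and the U2 snRNP 5.23. The ranges of these groups overlapped, from 5.70 to 122 TPM in the Lsm ring, from 6.65 to 50 in the Sm ring and from 1.19 to 14.9 in the tri-snRNP.

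**Figure D4:**
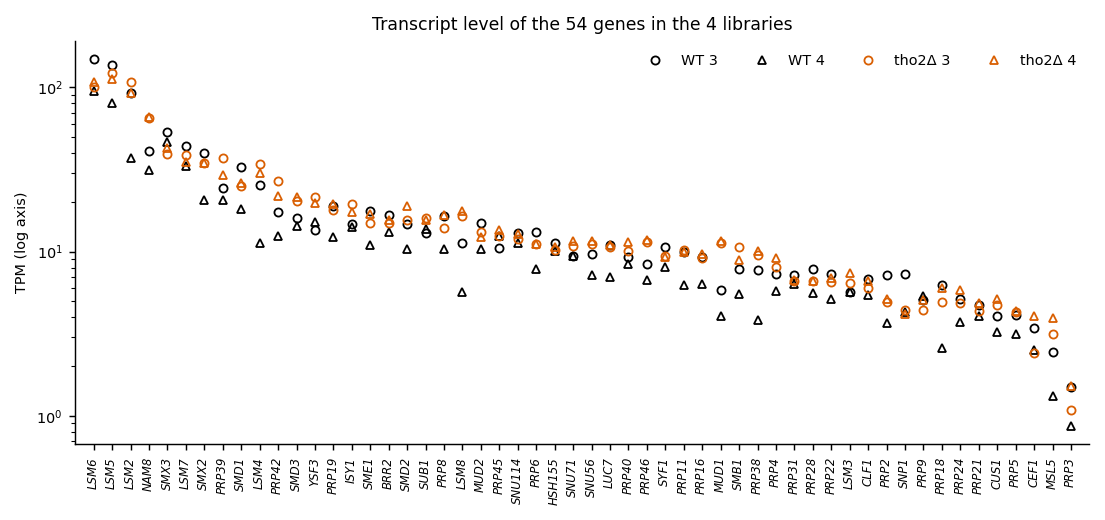
TPM of the 54 genes (log axis) in the 4 libraries, 1 symbol per library, ordered by the mean over the libraries from *LSM6* to *PRP3*. The 4 genes over 50 TPM lie at the left, and WT replicate 4 (black triangles) is the lowest symbol for 47 genes. The strains overlap in TPM for some genes, such as *BRR2* and *SYF1*. They lie apart for others, such as *MUD1* and *NAM8*, more often with *tho2Δ* above.

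Other genes of splicing, 47 in number and listed by role, were read from the same fit. Of these, 46 were tested, 0 were higher (1 at an unadjusted p under 0.05, and 0 also in DESeq2), 8 were lower and 38 did not pass in edgeR with TMM. The 17.4% called compares with 38.0% of all genes. Their median log2 fold change was -0.11, and with library totals it was 0.35 beside 0.45 for all genes. On the TPM scales *BUD13*, named after its values were seen, passed as higher (log2 fold changes 0.82 and 0.94, adjusted p = 0.0435 and 0.0497, limma). Without either *tho2Δ* library 1 of the 46 genes passed, as lower. *PRP43*, the helicase that takes the spliceosome apart and also acts in ribosome assembly, had 149 and 146 CPM in WT and 68.5 and 61.7 CPM in *tho2Δ* (log2 fold change -1.18, SE 0.10, adjusted p = 0.00199, edgeR). This 2.26-fold lower level passed without any single library, with adjusted p of at most 0.0325 (edgeR), and with library totals it was at -0.73 (adjusted p = 0.0611, edgeR). *SYF2*, a protein associated with the Prp19 complex, had 4.52 and 8.5 CPM in WT and 2.57 and 2.86 CPM in *tho2Δ* (log2 fold change -1.25, SE 0.35, adjusted p = 0.0387, edgeR), and without WT replicate 4 it was at -0.74. *SAD1*, which acts in snRNP assembly, *CWC24*, *SNU66*, a tri-snRNP protein, and *SNU13*, which binds U4 RNA, had log2 fold changes of -0.68, -0.67, -0.46 and -0.54. *SUB2*, singled out from the 8 after its values were seen, encodes the helicase that joins THO to the export machinery and had 895 and 902 CPM in WT and 635 and 633 CPM in *tho2Δ* (log2 fold change -0.50, SE 0.15, adjusted p = 0.0447, edgeR), but with library totals it was at -0.057 (adjusted p = 0.852, edgeR). With library totals none of the 46 genes passed in edgeR, with 5 higher and 1 lower at an unadjusted p under 0.05. Over all genes tested 25.6% were called with library totals.

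The spliceosomal RNAs were read from the same libraries. *SNR14*, the U4 RNA, had 30.3 and 21.1 CPM in WT and 64.7 and 51.1 CPM in *tho2Δ*, and with TMM, all 4 libraries and genotype alone it was the only one of the 6 entries that passed in edgeR (log2 fold change 1.17, SE 0.22, adjusted p = 0.0120, edgeR). It was also higher with library totals, at 1.57 (adjusted p = 0.0169, edgeR), but not without *tho2Δ* replicate 3 (adjusted p = 0.0789, edgeR). *LSR1*, the U2 RNA, had 558584 and 1684292 counts in WT and 803336 and 847096 in *tho2Δ*, so the WT libraries lay on both sides of *tho2Δ*. It was lower without WT replicate 3 (log2 fold change -1.83, adjusted p = 1.51e-06, edgeR) and higher without WT replicate 4 (0.30, adjusted p = 0.0106, edgeR). *SNR19*, the U1 RNA, had log2 fold change -0.11 and likewise had WT on both sides, with -0.50 (adjusted p = 0.000155, edgeR) without WT replicate 3 and 0.37 (adjusted p = 0.00164, edgeR) without WT replicate 4. The 2 forms of U5 RNA, *SNR7-L* and *SNR7-S*, had log2 fold changes of 1.04 and 0.34 (adjusted p = 0.0801 and 0.423, edgeR). *SNR7-L* passed as higher with DESeq2 (1.04, adjusted p = 0.0497) and without WT replicate 3 (1.67, adjusted p = 0.00241, edgeR). *SNR6*, the U6 RNA, had 160, 25, 82 and 116 counts in the same order of libraries, and the sign depended on the WT library, at 1.17 without WT replicate 3 and -0.96 without WT replicate 4 (adjusted p = 0.0212 and 0.0142, edgeR). How completely such short RNAs enter these libraries was not tested.

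The genes that the spliceosome acts on were split by whether they encode a ribosomal protein. All 88 ribosomal protein genes with an intron were tested. In edgeR with TMM 86 were lower, 0 were higher and 2 did not pass, at a median log2 fold change of -1.41. Over all genes tested 19.1% were lower. With library totals 69 of the 88 were lower, at a median of -0.93, beside 303 of all 5890 genes tested. Without *tho2Δ* replicate 3 the median of the 88 was -1.43 and without *tho2Δ* replicate 4 it was -1.38, beside 0.015 and 0.004 for all genes. Fewer of the 88 passed in these fits, as did fewer of all genes. Many of these genes have a near-identical copy, so their counts are uncertain one by one. The other genes with an intron, 183 listed and 175 tested, were not shifted in this way, with 30 higher, 27 lower and 118 not past the threshold (32.6% called, beside 38.0% of all genes) and a median of 0.04. With library totals 33 of them were higher and 4 lower, at a median of 0.47 beside 0.45 for all genes. The difference between the groups was not tested. Ribosomal protein genes without an intron were not listed apart, so any tie of the drop to introns was not tested either.

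**Figure D5:**
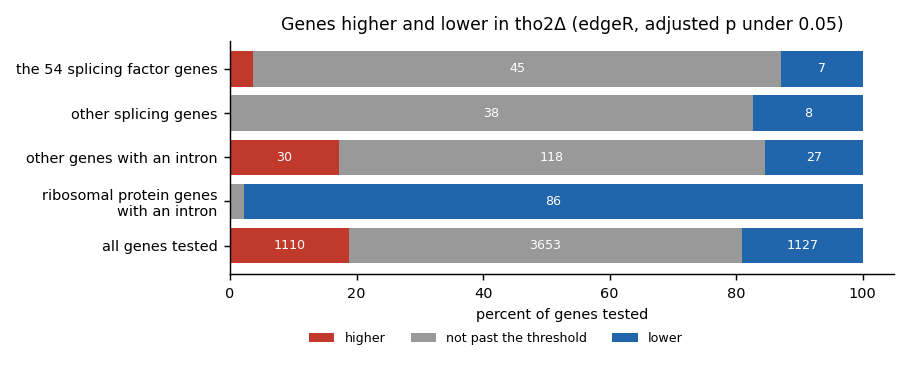
Share of genes higher (red), lower (blue) and not past the threshold (grey) in *tho2Δ* by edgeR with TMM, for the 54 splicing factor genes, other splicing genes, genes with an intron and all genes tested, with counts printed in the bars. The 54 genes have 2 higher (the unlabelled red end), 45 not past the threshold and 7 lower, a smaller called share than all genes, and the 7 lower calls are absent with library totals.

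The sequence around each coding start was searched on both strands for 3 short motifs known from growth and stress genes of yeast. The window of 300 bases runs from 250 before to 50 after the start. GATGAG (PAC, known from ribosome assembly genes) was in 13 of the 54 windows (24.1%) and in 20.4% of 5976 windows of all protein-coding genes. AAAATTTT (the core of RRPE, known from the same genes) was in 3 (5.56%) against 9.02%. AGGGG (the stress response element, STRE) was in 7 (13.0%) against 21.6%. Not all of these matches lie before the start. The PAC matches of *PRP42*, *PRP31*, *SNU114*, *LSM3* and *SYF1* and the AGGGG matches of *SMX2* and *NAM8* are within the coding sequence. The PAC matches of *PRP8* and *MSL5* span the start codon. Among the genes past the threshold, *MUD1* had an AGGGG that begins 185 bases before the start and a PAC match on the other strand 21 bases before it, and *HSH155* had a PAC match 71 bases before it. The matches are printed with the motif in capitals and 10 bases on each side, in build R64 on the strand of the gene, which is the plus strand for both.
*MUD1*, STRE, chrII:479143-479167: cttttcatatAGGGGgggttggtgt
*MUD1*, PAC on the other strand, chrII:479307-479332: aaaagacggcCTCATCaaacctaaag
*HSH155*, PAC, chrXIII:845490-845515: tctccttctcGATGAGttagaactga
The AGGGG of *NAM8* and the PAC match of *SYF1* lie within their coding sequences, and none of the 3 motifs was found before those starts. A match is a description of the letters in the window and was not tested as a site.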

How the data were processed

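The 4 libraries were read from a single table of the whole series. The authors' counts are raw whole numbers of reads per gene. The authors' TPM values had been divided by gene length and rescaled per library, and the FPKM values of the authors, scaled by length and depth, were left aside (4 columns). For the upstream steps the submitters' notes list HISAT2 2.1.0, StringTie 1.3.4d, Trimmomatic and bcl2fastq 2.20.0 with genome build R64, in no order and without roles, and no source read here gives the annotation or the strand setting. The labels name an RNeasy kit for RNA extraction and the study's methods hot phenol. Lines without a gene, 3 in all, were dropped.

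The main test was the quasi-likelihood test of edgeR 4.0.16 in R 4.3.3 on raw counts, with TMM factors, filterByExpr and genotype as the only term, adjusted by Benjamini-Hochberg over 5890 genes at 0.05. SEs were taken as the size of the log2 fold change over the root of F, and intervals are at 95%. CPM values carry the TMM factors, which were 1.00, 0.723, 1.18 and 1.17 for WT replicates 3 and 4 and *tho2Δ* replicates 3 and 4, whose totals were 33543267, 32401027, 31417222 and 36989697 counts. Limits from counts cover counting error only. Libraries of a strain differed beyond counting noise when scaled by their totals alone (median chi-square 42.9 in WT and 2.47 in *tho2Δ*, noise 0.455) and each counted as 1 sample. The chi-square did not use the TMM factors, so its WT value includes the offset between factors of 1.00 and 0.723. On the TMM scale the median absolute log2 difference over all genes tested was 0.24 in WT and 0.09 in *tho2Δ*.

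The fits were repeated with DESeq2 1.42.0, with its size factors inside edgeR, with library totals, with limma 3.58.1 on log2(TPM + 1) or log2(TPM + 0.1) where mean TPM reached 1, with no filter, with a mean of 50 counts as the filter, with a block for the replicate number, on protein-coding genes alone and without each library, when a lone library was taken to vary like those of the other strain. Roles were assigned by hand from textbook knowledge. The 54 genes, the lists and the tests were chosen with earlier results of these data known. Every 1 of the 54 genes is accounted for. Of the other splicing genes the 6 called ones with the smallest p are named, and of the snRNAs all 6 entries. *SUB2* and *BUD13* are named besides these because of their values. Introns, positions and sequences were read from the RefSeq R64 genome, to which 5995 of 6396 genes were matched by locus tag. By blastn 2.17.0, none of the 54 genes has a copy of 95% identity across 50% of its length, and 3 overlap another gene. The test was checked on simulated data first. Plots used Python 3.11.15 with numpy 2.4.6, pandas 2.3.3 and matplotlib 3.10.9.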

Additional observations from a re-analysis of the deposited data

How the results depend on the processing

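*MUD1* and *NAM8* kept their direction and their call under the 9 alternatives that used all 4 libraries and without either WT library. With 3 libraries the number of the 54 genes called ranged from 0 to 7 higher and from 0 to 16 lower, and over all genes from 307 to 1790 higher and from 200 to 1847 lower. The 7 genes called lower became 0 with library totals and 0 on both TPM scales, and 3 with DESeq2. The replicate block also left 3, the same as DESeq2 (*SNP1*, *SMX3* and *LSM6*), while *MUD1* and *NAM8* stayed higher. Over all genes 1200 were lower with DESeq2 and 1040 with the block. The share called in each of these 2 fits was 9.26% of the 54 genes, beside 36.1% of all genes. With the block *BRR2*, *SYF1*, *LSM7* and *HSH155* had adjusted p = 0.0797, 0.0778, 0.0639 and 0.0641 and *SUB2* 0.139 (edgeR), and *SNR7-L* passed as higher (1.12, adjusted p = 0.0417, edgeR). Same-numbered libraries did not deviate together (correlation 0.00146 over 5890 genes, from 2 pairs), so the numbers were not taken as pairs. All genes called lower fell from 1127 to 303 with library totals and to 348 and 335 on log2(TPM + 1) and log2(TPM + 0.1). The median of the 54 genes went from -0.15 to 0.31, 0.23 and 0.26 in the same order, while its distance from the median of all genes stayed between -0.21 and -0.11 under all 13 alternatives. The sign turned for *HSH155* with library totals (0.023), for *SYF1* with library totals (0.043) and for *BRR2* with library totals (0.092) and on both TPM scales (0.041 and 0.044). Of the snRNAs, *LSR1* ranged from -1.83 to 0.30 and *SNR19* from -0.50 to 0.37 when 1 library was left out, with the upper values without WT replicate 4, and *SNR6* from -0.96 to 1.17, with the upper value without WT replicate 3. All 3 passed without either WT library, in opposite directions. Other splicing genes called lower went from 8 to 0 with library totals, 1 and 0 on the TPM scales and 5 with the block, and other genes with an intron called lower from 27 to 4, 5 and 5. Library totals count every library at its own total, and the cause of these shifts was not tested.

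With 2 libraries per strain the median SE of the 54 genes was 0.16 on the TMM scale. Among the 45 genes not called there, the 95% interval lay within 2-fold for 38 and within 1.5-fold for 18. These intervals do not cover the choice of scaling. The lowest mean among the 54 genes was 67.5 counts, where sampling noise weighs most.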
